A study of Mus musculus with 16 samples.

Results

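Sweet, umami and bitter taste are relayed by one chain of proteins, and 9 of its genes are described here in the terminal ileum of mice: the receptor genes Tas1r1, Tas1r2 and Tas1r3, the G protein subunit genes Gnat3, Gnb3 and Gng13, and the effector genes Plcb2, Itpr3 and Trpm5. They were chosen by name, and the transcripts of each gene were summed. Of the 9 genes, 7 were among the 23299 genes listed in the table of deposited values, whereas Tas1r2 and Gnb3 were not listed.

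Terminal ileum mRNA was sequenced on the Ion Proton from mice with the intact gene (Tas1r3+/+, C57BL/6) and from mice lacking it in every cell (Tas1r3-/-, the Tas1r3tm1Csz allele on the C57BL/6 background). Mice of each genotype received a normal diet with plain water (ND), or a Western diet (WD), made of 60% high-fat chow and a 30% sucrose solution to drink, for 10 weeks. The labels give 2 males and 2 females per group. The libraries used are 4 from Tas1r3+/+ mice on the ND (males M1 and M2, females F1 and F2), 2 from Tas1r3-/- mice on the ND (M1 and M2), 4 from Tas1r3+/+ mice on the WD, and 3 from Tas1r3-/- mice on the WD (M1, M2 and the mean of the female columns, F). Both female columns of Tas1r3-/- mice on the ND were not used, since outside 17 and 18 transcripts they are weighted averages of the males' columns, and Tas1r3 is one of the genes that depart. Nothing states that the samples of a group came from separate litters, so p-values measure the spread between these samples.

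In taste cells, T1R proteins work in pairs: T1R3 joins T1R2 in the sweet receptor and T1R1 in the umami receptor. The receptor acts on a G protein of α-gustducin (Gnat3), Gβ3 (Gnb3) and Gγ13 (Gng13), whose βγ part activates phospholipase Cβ2 (Plcb2). The IP3 made by this enzyme opens the type 3 IP3 receptor (Itpr3) on internal calcium stores, and the calcium opens the cation channel TRPM5. In the gut, the same genes are known from tuft cells and from some enteroendocrine cells.

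Tas1r3 lies on chromosome 4 at 155859268 to 155863362, minus strand (GRCm38), and has 1 annotated transcript of 3523 bases in 6 exons. The study's RT-PCR primers for mouse Tas1r3 are shown because they mark the part of the message its authors also measured. The forward primer matched exon 2 (chr4:155862832-155862852) and the reverse primer exon 3 (chr4:155862616-155862634), 157 bases apart from end to end in the transcript. They are printed in lower case, 5′ to 3′, with no part marked.
Tas1r3 forward primer: tgctgcctactgcaactacac
Tas1r3 reverse primer: ccggtcacttagccgatcc

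The 250 bases before the RefSeq start sites of Tas1r3 (chr4:155863354-155863603, minus strand) and Itpr3 (chr17:27057054-27057303, plus strand) are shown because, of the 5 members tested, these had the largest rise and the largest fall in log2(RPKM + 0.5) on the WD in Tas1r3+/+ mice (RefSeq, GRCm38.p6). Capitals mark the GC box GGGCGG and the octamer ATGCAAAT, the letters bound by POU factors such as POU2F3 of tuft cells, searched on both strands, where the octamer may read ATTTGCAT. The GC box was found in 32.7% and the octamer in 1.6% of 32851 upstream windows of this length. The Tas1r3 window held neither, and the Itpr3 window held 1 of each.
Tas1r3 upstream: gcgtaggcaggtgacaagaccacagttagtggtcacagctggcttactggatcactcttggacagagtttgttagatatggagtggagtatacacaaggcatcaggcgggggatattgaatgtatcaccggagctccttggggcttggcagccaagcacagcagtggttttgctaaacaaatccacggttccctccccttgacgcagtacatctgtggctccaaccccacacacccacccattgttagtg
Itpr3 upstream: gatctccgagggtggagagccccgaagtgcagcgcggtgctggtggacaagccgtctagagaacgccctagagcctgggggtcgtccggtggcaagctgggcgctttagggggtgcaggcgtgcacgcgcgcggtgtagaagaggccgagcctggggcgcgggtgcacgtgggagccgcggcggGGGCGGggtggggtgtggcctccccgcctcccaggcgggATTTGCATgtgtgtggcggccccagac

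Values are taken as RPKM, reads scaled to transcript length and library depth, so levels of different genes can be compared per length. In females 1 and 2 of ND-fed Tas1r3+/+ mice the values imply more reads (10453421 and 12384383) than an RPKM total would hold (9617461 and 11544479), so the library total may be that of another unit, and inferred reads are approximate to that extent. Over all genes, the deposited values of WD-fed mice sat lower. They summed to 817011 to 819992 in each ND column and to 542371 to 685274 in each WD column. Whether columns of both diets were quantified in the same way was not tested. Without scaling, the median log2 fold change with diet over 19042 genes was -0.38 in Tas1r3+/+ and -0.35 in Tas1r3-/- mice. With TMM-type scaling it was 0.02 and 0.00. Fold changes below are on the scaled log2(RPKM + 0.5) scale, which understates changes of low genes. The call rule was a 2-fold change or more together with a limma p below 0.01 after Benjamini-Hochberg adjustment over all genes tested. Implied depth was 7003820 to 12384383 reads per library. The ileal markers Fabp6 and Slc10a2, a bile acid binding protein and the bile acid transporter, were present in Tas1r3+/+ mice on the ND at 4396 ± 1292 and 122 ± 36.0 RPKM (SD, n = 4). Bulk RNA cannot tell fewer cells of a type from less RNA per cell.

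Tas1r3 was the member that differed most with diet. In ND-fed Tas1r3+/+ mice its level was 1.80 and 1.87 RPKM in the males and 2.95 and 2.06 RPKM in the females. In WD-fed Tas1r3+/+ mice it was 6.27 and 5.11 RPKM in the males and 4.23 and 4.21 RPKM in the females. Every WD library was above every ND library, as in 4.2% of genes tested on the scaled values, and the means were 4.96 ± 0.972 and 2.17 ± 0.530 RPKM (SD, n = 4 each).

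The log2 fold change of Tas1r3 on the WD in Tas1r3+/+ mice was 1.42 (SE 0.20, 95% interval 1.00 to 1.85) with an adjusted p of 0.0304 in limma, so it was not called at the 0.01 threshold. No member was called in this comparison, where 0.00525% of genes tested were called, and at an adjusted p under 0.05 alone, which 0.116% of genes passed, Tas1r3 was the one member past it. Its two-sided exact permutation p was 0.0286, the smallest that 4 against 4 samples allow. The difference on the log2 scale was 1.59 within males and 1.25 within females (2 libraries against 2 in each). Leaving out 1 library gave adjusted p-values from 0.0341 to 0.157.

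The depth behind Tas1r3 in Tas1r3+/+ mice was 47.4 to 99.9 implied reads on the ND and 149.8 to 249.7 on the WD. None of the 8 values was a whole number of reads within 0.02. Of 4631 single-transcript genes with 0.5 to 200 reads in all 8 libraries, 83.7% had 8 whole values and 6.69% had none. Tas1r3 itself was outside that range, with over 200 reads in males 1 and 2 and female 2 on the WD. In 3 of the 8 libraries (males 1 and 2 on the ND, female 2 on the WD) the deposited Tas1r3 value had more than 6 digits, as did 169 of 770354 values in the 13 libraries. Tas1r3 overlaps the 3′ end of Dvl1, a Wnt pathway gene on the opposite strand (chr4:155847402-155859303), by 36 bases, and the strand setting of the counting is not given in the sources used here. The part of these in the result was not tested, and leaving out transcripts with such values leaves out Tas1r3.

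In Tas1r3-/- mice Tas1r3 was at 0.000726 and 0.000845 RPKM on the ND, and at 0.00452 and 0.00338 RPKM in the males and 0.00155 RPKM in the female mean on the WD. All of these are under the level of 1 read. Against a floor of 3 reads per library, Tas1r3+/+ means were higher by at least 20.1-fold (ND) and at least 61.4-fold (WD). Tas1r3 was called between genotypes on the WD (log2 fold change -3.57, SE 0.21, adjusted p 1.06e-05 in limma), where 0.0105% of genes were called. With the knockout under 1 read, this fitted fold change depends on the pseudocount, and was -5.74 with 0.1 and -2.69 with 1. On the ND, where no gene was called (0%) and 0.00525% of genes passed an adjusted p under 0.05, its log2 fold change was -2.15 (SE 0.24) with an adjusted p of 0.0160 (-4.18 and -1.45 with those pseudocounts). The change with diet was 0.01 (SE 0.25) in Tas1r3-/- mice. Its difference from the change in Tas1r3+/+ mice was -1.41 (SE 0.32), with an unadjusted p of 0.000770 and an adjusted p of 1.00 in limma. Tas1r3-/- mice lack this gene, which reached the filter of an RPKM of at least 1 only in Tas1r3+/+ libraries. The outcome of both genotype comparisons was thus fixed by the knockout. The difference in diet change restates the change in Tas1r3+/+ mice and is no separate evidence.

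**Figure D1:**
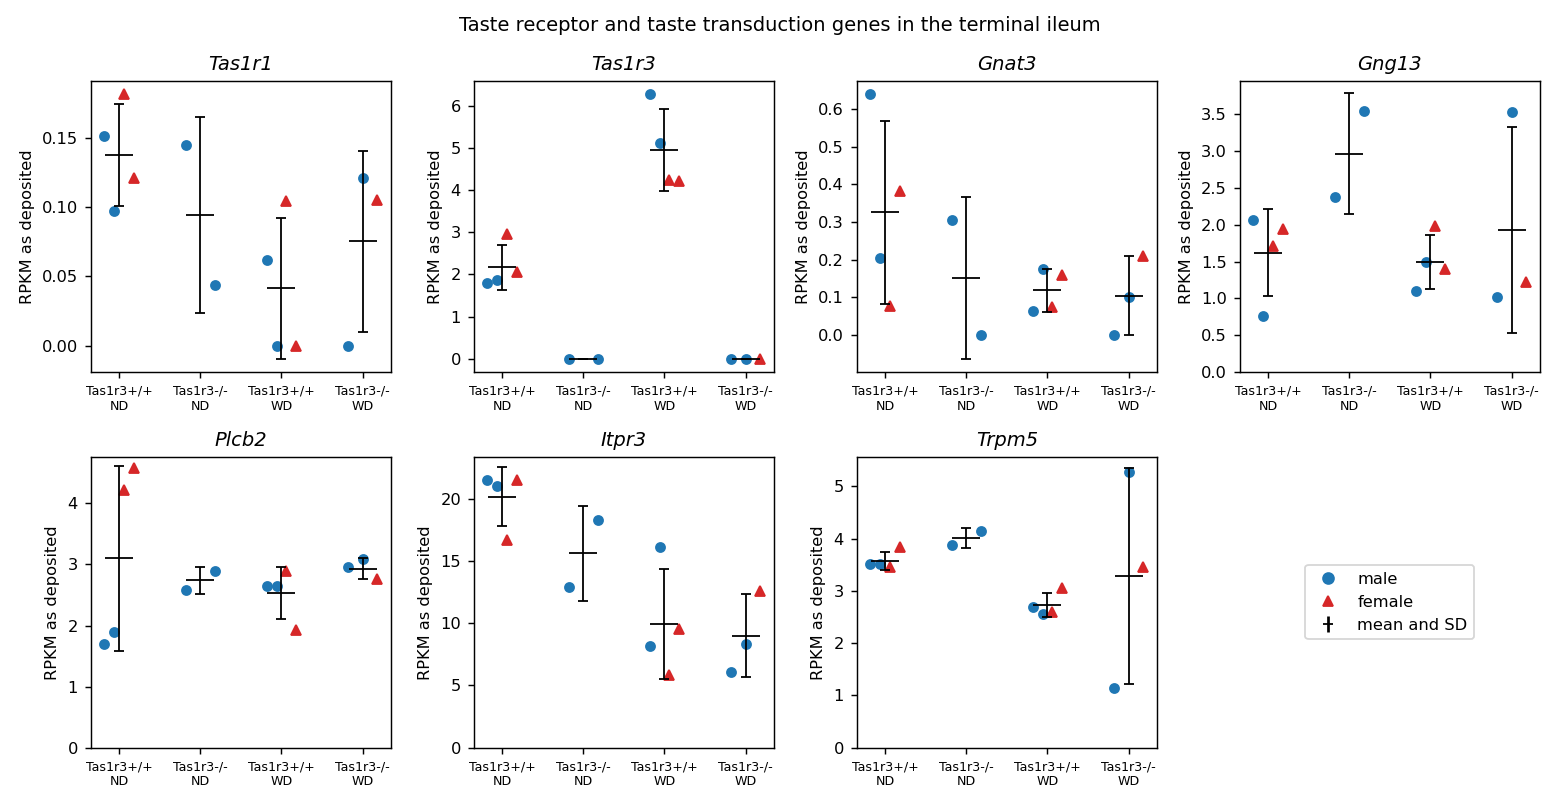
RPKM as deposited (vertical axes, a separate scale for each gene) of the 7 listed members in the 4 groups, with 1 point per library (circles male, triangles female) and bars at the mean and SD. Tas1r3 lies between 4.21 and 6.27 in WD-fed and between 1.80 and 2.95 in ND-fed Tas1r3+/+ mice, and near 0 in Tas1r3-/- mice.

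The other T1R gene listed, Tas1r1, was close to the limit of detection. It had 2 to 5 reads per library in ND-fed and 0 to 3 reads in WD-fed Tas1r3+/+ mice. Summed over 4 libraries each, this was 15 reads (exact Poisson 95% interval 8.40 to 24.7) and 5 reads (1.62 to 11.7). The Tas1r3-/- sums were 6 reads (2.20 to 13.1) in 2 libraries on the ND and 8 reads (3.45 to 15.8) in 3 libraries on the WD. For the WD female, the reads were those of the F1 column, not of the mean. The groups overlapped, the exact permutation p for diet in Tas1r3+/+ mice was 0.0857, and no difference was detectable at this depth. Such intervals cover counting error only.

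Of the G protein subunits, Gnat3 was as scarce as Tas1r1. It had 17 reads (exact Poisson 95% interval 9.90 to 27.2) over the 4 libraries of ND-fed Tas1r3+/+ mice, with 1 to 8 per library, and 8 reads (3.45 to 15.8) over those on the WD, with 1 to 3 per library (exact permutation p 0.343). Libraries of Tas1r3-/- mice held 5 reads (1.62 to 11.7) on the ND and 4 reads (1.09 to 10.2) on the WD, again with the F1 column for the female. Tas1r1 and Gnat3 did not pass the filter of an RPKM of at least 1 in 2 libraries, and 5 members did.

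Gng13 was measured at 2.07, 0.761, 1.71 and 1.94 RPKM in ND-fed Tas1r3+/+ mice (M1, M2, F1, F2) and at 1.10, 1.5, 1.99 and 1.40 RPKM on the WD. In Tas1r3-/- mice it was 2.38 and 3.55 RPKM on the ND and 1.02, 3.54 and 1.22 RPKM on the WD (M1, M2, F). These values rest on few reads, 3.94 to 36.8 implied reads per library (median 13.7). The lowest, 3.94, was in male 2 of the ND-fed Tas1r3+/+ mice. On the ND, both Tas1r3-/- libraries were above all 4 Tas1r3+/+ libraries, as were 8.68% of genes tested. The log2 fold change between genotypes on the ND was 0.85 (SE 0.40) with an adjusted p of 0.895 in limma, and the exact permutation p was 0.133, the smallest that 2 against 4 samples allow. The change with diet in Tas1r3+/+ mice was 0.29 (95% interval -0.42 to 1.00), and no Gng13 comparison was called.

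Plcb2 was lower in the ND-fed Tas1r3+/+ males (1.70 and 1.90 RPKM) than in the females (4.22 and 4.59 RPKM). On the WD the same genotype gave 2.65 and 2.65 RPKM in males and 2.90 and 1.92 RPKM in females, so the WD values fell between the ND sexes. In Tas1r3-/- mice it was 2.59 and 2.89 RPKM on the ND and 2.95, 3.09 and 2.76 RPKM on the WD. The log2 fold change with diet was 0.23 (95% interval -0.28 to 0.74) in Tas1r3+/+ and 0.43 (-0.23 to 1.09) in Tas1r3-/- mice. On the WD, all 3 scaled Tas1r3-/- values were above the 4 Tas1r3+/+ values, as for 1.55% of genes, by 0.30 on the log2 scale (SE 0.26, adjusted p 1.00 in limma), with an exact permutation p of 0.0571, the smallest possible here.

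Itpr3 was the most abundant member in ND-fed mice. Its level in Tas1r3+/+ mice was 21.5, 21, 16.7 and 21.5 RPKM on the ND and 8.16, 16.1, 5.88 and 9.57 RPKM on the WD. As deposited, every WD value was below every ND value, as in 24.3% of genes, but after scaling the groups overlapped. The log2 fold change on the WD was -0.62 (SE 0.31, 95% interval -1.29 to 0.05), with an adjusted p of 0.353 in limma and an exact permutation p of 0.171. Itpr3 in Tas1r3-/- mice was at 12.9 and 18.3 RPKM on the ND and at 6.08, 8.31 and 12.6 RPKM on the WD, a log2 fold change of -0.41 (95% interval -1.28 to 0.45).

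Trpm5 in Tas1r3+/+ mice was at 3.50, 3.51, 3.46 and 3.83 RPKM on the ND and 2.68, 2.56, 2.60 and 3.06 RPKM on the WD. As deposited, every WD value was below every ND value, as in 24.3% of genes. The scaled values overlapped, with a log2 fold change of 0.06 (SE 0.33, 95% interval -0.66 to 0.78). In Tas1r3-/- mice it was 3.88 and 4.14 RPKM on the ND, and 1.15, 5.27 and 3.46 RPKM on the WD, where the first male was low and the second high. Both Tas1r3-/- libraries on the ND were above all 4 Tas1r3+/+ libraries after scaling, as were 8.68% of genes tested. This log2 fold change was 0.29 (SE 0.41), with an exact permutation p of 0.133, the smallest possible. No Trpm5 comparison was called, and adjusted p-values were at least 0.926 (limma).

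**Figure D2:**
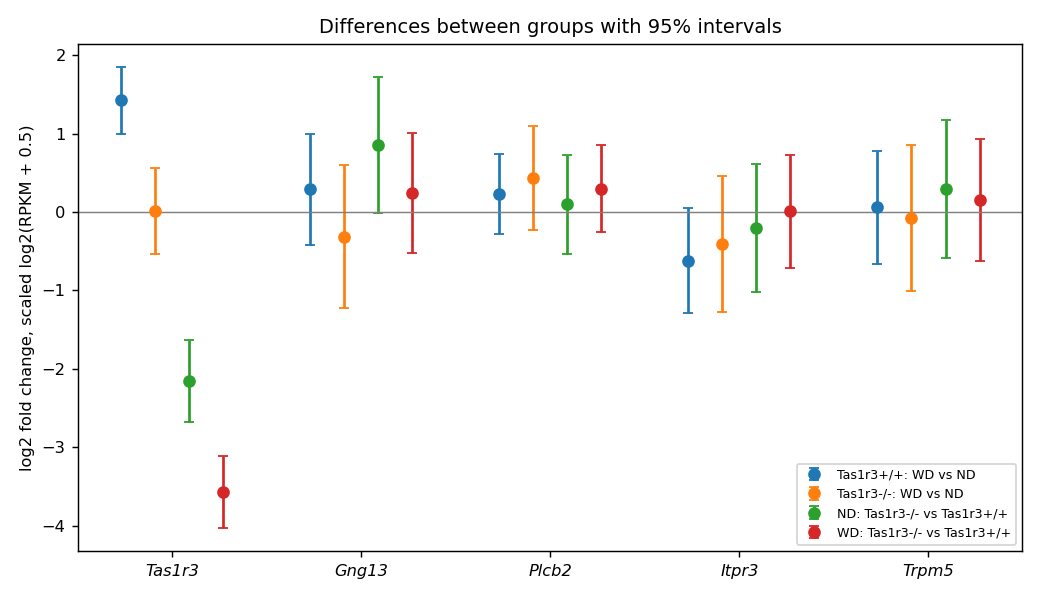
Log2 fold change on the scaled log2(RPKM + 0.5) scale (vertical axis) of the 5 members tested, in 4 comparisons, with 95% intervals from limma. Tas1r3 is at 1.42 for the WD in Tas1r3+/+ mice and at -2.15 and -3.57 between genotypes, and each interval of the remaining members includes 0.

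Ratios of 2 genes within a library do not depend on how libraries are scaled. Tas1r3 relative to Trpm5 was 0.514 to 0.852 in ND-fed and 1.38 to 2.34 in WD-fed Tas1r3+/+ mice, 3.02-fold higher on the WD. Relative to Plcb2 it was 2.59-fold higher and relative to Itpr3 4.97-fold higher, again with no overlap, and these 3 ratios each gave an exact permutation p of 0.0286, the smallest possible. Relative to Gng13 it was 2.38-fold higher with overlapping groups (exact permutation p 0.0571). The 4 ratios share the Tas1r3 values and are not independent.

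**Figure D3:**
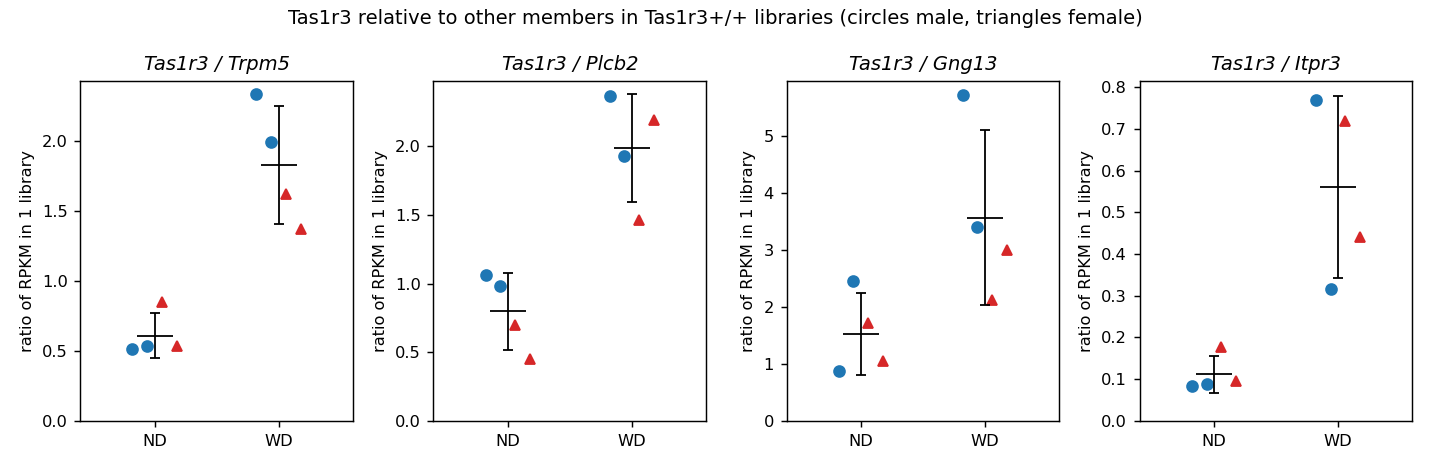
Ratio of the RPKM of Tas1r3 to that of Trpm5, Plcb2, Gng13 and Itpr3 within each Tas1r3+/+ library (vertical axes) on the ND and the WD, with bars at the mean and SD. Tas1r3 to Trpm5 is 0.609 ± 0.162 on the ND and 1.83 ± 0.421 on the WD.

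By level per length, the order in ND-fed Tas1r3+/+ mice was Itpr3 (20.2 RPKM), Trpm5 (3.58), Plcb2 (3.10), Tas1r3 (2.17), Gng13 (1.62), Gnat3 (0.325) and Tas1r1 (0.138). Itpr3 stood above the rest and Gnat3 and Tas1r1 below, while Trpm5 and Plcb2, Plcb2 and Tas1r3, and Tas1r3 and Gng13 overlapped as neighbours. On the WD, Tas1r3 (4.96 RPKM) came second after Itpr3 (9.94 RPKM), whose range it overlapped, and lay above every library's value for Trpm5 (2.73), Plcb2 (2.53) and Gng13 (1.5). The order rests on sums over all listed transcripts: the coding transcripts alone averaged 0.911 RPKM for Trpm5 and 0.774 RPKM for Plcb2 on the ND, below Tas1r3.

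Transcripts with retained introns took a large part of the summed RPKM of Trpm5 and Plcb2, a sum in which a read on a short transcript weighs more. The protein-coding Trpm5 transcript took a median of 20.7% of the gene's RPKM, from under 0.001% in female 1 of the WD-fed Tas1r3+/+ mice to 61.0% in male 2 of the same group. The listed coding transcript of Plcb2 took 13.8% to 44.3% (median 25.8%), and that of Itpr3 83.4% to 100%. By implied reads, the coding transcript held a median of 34.9% for Trpm5 (over 50% in 2 of 13 libraries) and 54.4% for Plcb2 (over 50% in 9 of 13). Reads shared by overlapping transcripts are divided by estimation, and both the shares and the gene sums depend on it.

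**Figure D4:**
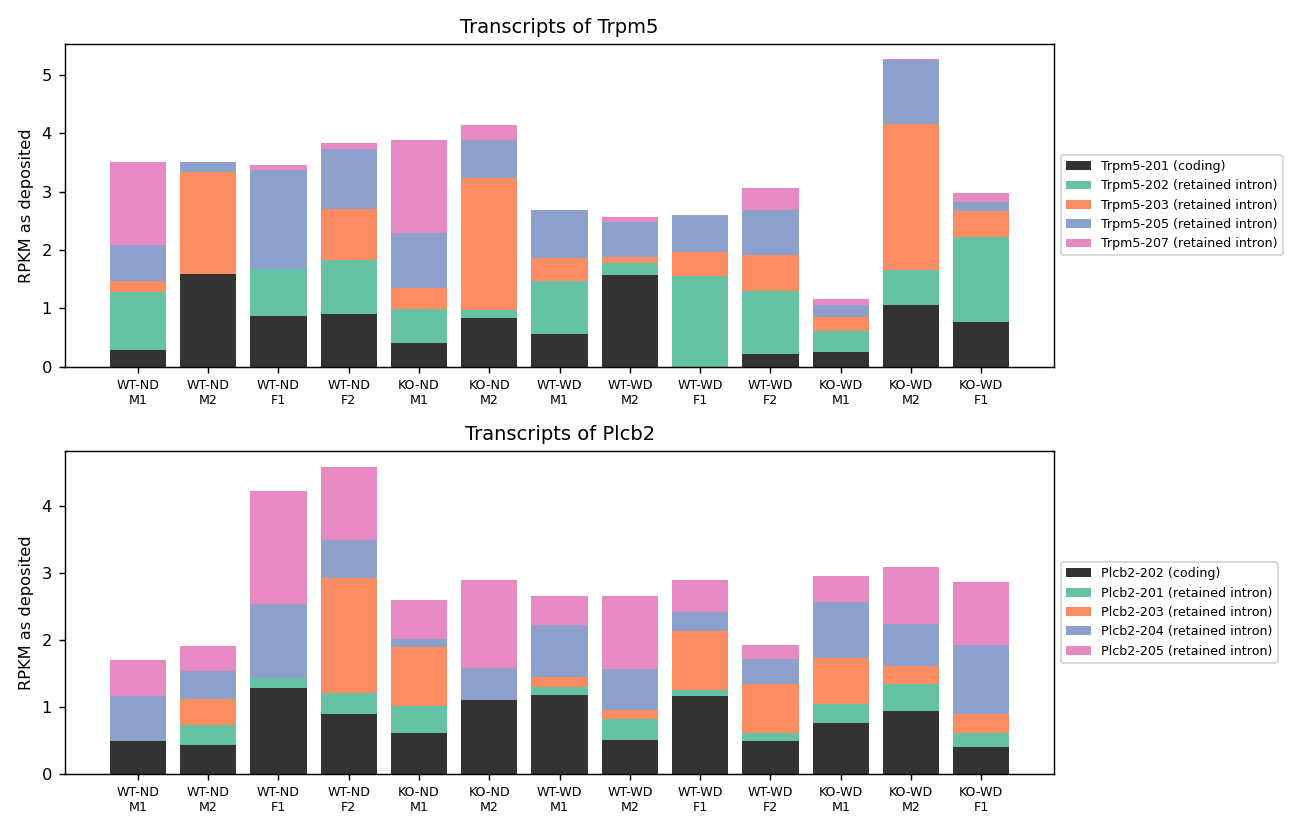
RPKM as deposited (vertical axes) of the listed transcripts of Trpm5 and Plcb2, stacked, in 13 libraries (WT is Tas1r3+/+ and KO is Tas1r3-/-, M male and F female, with the F1 column shown for WD-fed KO mice). The coding transcript, in black, varies between libraries more than the Trpm5 sum does in Tas1r3+/+ mice.

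Some relatives of the members were far more abundant, and others were scarcer. In ND-fed Tas1r3+/+ mice, Gnai2, an inhibitory Gα gene, was at 279 ± 54.1 RPKM beside 0.325 for Gnat3. Plcb3 was at 345 ± 16 RPKM beside 3.10 for Plcb2, and Trpm4, the channel gene nearest to Trpm5, at 125 ± 12.9 RPKM beside 3.58 (SD, n = 4 each). By contrast, Itpr1 and Itpr2 were at 6.68 and 6.28 RPKM beside 20.2 for Itpr3, Plcb1 was at 0.651 RPKM and Gng7 was at 1.03 RPKM beside 1.62 for Gng13. Of 26 relatives, 23 were listed and 21 tested, and none was called in any of the 4 comparisons. With diet in Tas1r3+/+ mice, 2 were higher and 2 lower at an unadjusted p under 0.05 (over all genes 6.90% and 8.64%). The smallest p-values were those of Gng10, a Gγ gene (log2 fold change 1.35, SE 0.30, adjusted p 0.0956), Plcb4 (0.75, SE 0.32, adjusted p 0.287) and Plcb3 (-0.52, SE 0.23, adjusted p 0.310; limma).

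None of the 35 Tas2r bitter receptor genes was listed. Of 19 other genes of taste cells, 11 were listed and 8 tested, with none called. Kcnq1, a potassium channel gene, had a log2 fold change of -0.67 with diet in Tas1r3+/+ mice (SE 0.19, adjusted p 0.150), Car4, a carbonic anhydrase gene also expressed by gut epithelium, -1.43 (SE 0.56, adjusted p 0.252), and Snap25, a synaptic gene, 1.22 (SE 0.54, adjusted p 0.301; limma). The 7 tested genes of sugar transport and sensing had none called, and the smallest p-values were those of Slc2a2 (GLUT2, log2 fold change 1.07, adjusted p 0.450), Abcc8 (0.32, 0.679) and Slc2a5 (GLUT5, -0.68, 0.680).

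Tuft cell genes gave no call either. Of 16, 15 were listed and 11 tested, and their median log2 fold change with diet in Tas1r3+/+ mice was 0.13, beside 0.02 for all genes. Ltc4s, of leukotriene synthesis, was at -0.98 (SE 0.48, adjusted p 0.351), Dclk1, the common tuft cell marker, at 0.44 (SE 0.24, adjusted p 0.394) and Hpgds at 0.40 (SE 0.23, adjusted p 0.430; limma). The summed scaled level of the list was 33.6 to 55.2 RPKM on the ND and 37.0 to 64.1 RPKM on the WD in Tas1r3+/+ mice, and 46.7 to 60.3 and 51.7 to 62.1 RPKM in Tas1r3-/- mice.

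Of 12 enteroendocrine genes tested, none was called. Gcg, which encodes the GLP-1 precursor, had a log2 fold change of 1.04 with diet in Tas1r3+/+ mice (SE 0.32, adjusted p 0.168), Cck 0.73 (SE 0.35, adjusted p 0.341) and Sst 0.55 (SE 0.32, adjusted p 0.425; limma). Leukocyte markers moved in the same direction as Tas1r3: all 6 had a log2 fold change above 0, as did 51.8% of genes, and their summed scaled level was 119 to 233 RPKM on the ND and 169 to 328 RPKM on the WD in Tas1r3+/+ mice. Smooth muscle markers summed to 910 to 2769 and 791 to 3377 RPKM. Goblet cell markers moved the opposite way, with a list median of -0.67. At an unadjusted limma p under 0.05, 2 of 6 were lower, beside 8.64% of genes tested. They were Muc2 at -1.40 (SE 0.30, adjusted p 0.0867) and Spdef at -0.56 (SE 0.19, adjusted p 0.201; limma). Adipocyte markers had a median of -1.25, with 2 of 4 lower by that rule. They were Plin1 at -2.67 (SE 0.80, adjusted p 0.158) and Adipoq at -2.07 (SE 0.93, adjusted p 0.311; limma). By the same rule, 2 of 6 leukocyte, 1 of 12 enteroendocrine and 1 of 5 enteric neuron markers were higher, beside 6.9% of genes tested. The enteroendocrine marker was Gcg, and 9 of the 12 had a log2 fold change above 0, beside 51.8% of genes. The list medians were -0.17 for enterocyte, -0.07 for Paneth cell, 0.32 for enteric neuron, 0.35 for smooth muscle and 0.35 for enteroendocrine markers. None of these genes was called. The part of any of these lists in the Tas1r3 result was not tested.

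The genes whose scaled log2 level was most like that of Tas1r3 over the 8 Tas1r3+/+ libraries were Gm6937, Dynlt3, Phip, Dleu2 and Brix1 (Pearson r 0.963 to 0.976). Those most like Trpm5 over 13 libraries were Bola3, Gm12653, Sprr2b, Sprr2a3 and Swi5 (r 0.849 to 0.863), and with group means removed Gm17872, Gm2622, Cd55b, Gm8055 and Gm31520 (r 0.903 to 0.923). Among the members, Gng13 was most like Trpm5 over the 13 libraries, with r = 0.63, against 0.31 for Itpr3, 0.08 for Plcb2 and -0.20 for Tas1r3. The 13 libraries include Tas1r3-/- mice, which lack Tas1r3. Its r with Trpm5 was 0.07 with group means removed and 0.19 over the 8 Tas1r3+/+ libraries. These libraries share diet groups, genotypes and depth differences, and the values are descriptions.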

How the data were processed

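Terminal ileum mRNA, labelled as 16 samples, was read by the authors on an Ion Proton. Reads were mapped to mm10 (GRCm38) with STAR in Partek Flow and quantified per Ensembl transcript. The deposited values were taken as RPKM per transcript, although they are named as raw counts. Because the values are not counts, no count test was used. RPKM were summed per gene. For Tas1r3-/- females on the WD, both columns were averaged, as one appears related to the other. TMM-type factors scaled the 13 libraries. The 19042 genes reaching an RPKM of 1 in 2 or more libraries were fitted as log2(RPKM + 0.5) in limma 3.58.1 (R 4.3.3), with a mean-variance trend and all 4 groups together. Single members had two-sided exact permutation tests (scipy 1.17.1). Reads were inferred from the RPKM step of 1 read, with a tolerance of 0.02, on GENCODE M21 lengths, to which 98.2% of transcripts matched by name. For Tas1r3-/- females on the WD, reads and transcript shares were those of the F1 column. In simulated data with 200 changed genes, 94 were recovered at a log2 change of 1.5 and 170 at 3 (Tas1r3+/+, WD against ND). Members and lists were chosen with earlier results of these data known. All 9 members are named, and from the relatives, other taste cell, sugar, tuft and enteroendocrine lists the 3 genes with the smallest p for diet in Tas1r3+/+ mice. Further list genes, such as Gnai2, Trpm4, Itpr1, Itpr2, Plcb1, Gng7, Fabp6, Slc10a2 and the goblet cell and adipocyte markers, were named after their values were seen. Alternatives were other pseudocounts, filters, scalings, thresholds, sample sets and covariates.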

Additional observations from a re-analysis of the deposited data

Results flagged for a closer look

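In ND-fed Tas1r3+/+ mice, Itpr3 in female 1 was far below the other 3 libraries, at 16.7 RPKM. Trpm5 in female 2 of the same group was at 3.83 RPKM as deposited, set apart from 3.46 to 3.51 RPKM in the other 3 libraries, but after scaling it was at 3.08 beside 3.04 and 3.06 in the males and 2.46 in female 1. A 95% critical value marks about 1 in 20 groups by chance.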

How the results depend on the processing

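The change of Tas1r3 with diet in Tas1r3+/+ mice stayed positive in every alternative that gave a value, at 1.34 to 1.52 (log2) with 1 library left out, and passed the adjusted p of 0.01 with all 16 columns as labelled (1.41, limma adjusted p 0.00159) or, without a fold limit, an adjusted p of 0.05 (1.42). Each of these gave 1 member called, as they did between genotypes on the ND, where a pseudocount of 0.1 also gave 1. The fit of all 16 columns counts the averaged and related female columns of Tas1r3-/- mice as separate libraries. Its adjusted p-values thus rest on more samples than the data hold. Between genotypes on the WD, no member (0) was called in males only or without transcripts with more than 6 digits, which removes Tas1r3; with 1 library left out the counts were 1 there and 0 elsewhere. The replicate block changed no call: Tas1r3 was at 1.42 with an adjusted p of 0.0624 (limma). Deviations of each gene from its group mean were correlated between libraries of different groups. Same-numbered libraries gave r from -0.202 to 0.568 and the others from -0.632 to 0.634, with the female mean counted as female 1. Between the diets in Tas1r3+/+ mice, same-numbered libraries ran from -0.009 to 0.472 and the others from -0.369 to 0.277. The numbers were not taken as pairs in the main fit.

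Members near 0 changed sign. With RPKM as deposited, the diet change in Tas1r3+/+ mice was -0.053 for Gng13, -0.16 for Plcb2 and -0.34 for Trpm5, the genotype difference on the ND -0.052 for Plcb2 and that on the WD -0.10 for Itpr3, which was also -0.00011 with sex as a covariate, -0.022 in the 2 groups alone and -0.45 in males only. Males only gave -0.15 for Trpm5 (diet, Tas1r3+/+), and for the difference between genotypes in diet change -0.10 (Itpr3) and -0.21 (Plcb2). The most abundant transcript gave Trpm5 -0.053 (diet, Tas1r3+/+), 0.069 (diet, Tas1r3-/-) and 0.12 (difference in diet change), and Plcb2 -0.040 (genotypes, WD) and -0.25 (difference in diet change). With 1 library left out, Trpm5 ran from -0.10 to 0.13 (diet, Tas1r3+/+), -0.47 to 0.47 (diet, Tas1r3-/-), -0.23 to 0.72 (genotypes, WD) and -0.53 to 0.41 (difference in diet change), Plcb2 from -0.063 to 0.30 (genotypes, ND), Gng13 from -0.20 to 0.56 and Itpr3 from -0.29 to 0.29 (genotypes, WD), and Itpr3 from -0.089 to 0.47 (difference in diet change). These causes were not tested. Depth limits Tas1r1 and Gnat3, and Gng13 also rests on few reads.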
